A study of Mus musculus with 13 samples.

Results

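The mouse keratin, claudin and connexin genes were followed through a chemical reprogramming series. All genes of the deposited table whose symbol begins with Krt, Cldn, Gja, Gjb or Gjc followed by a number were taken, which gave 40 of 15176 genes: 17 keratins, 12 claudins and 11 connexins. RNA of 13 libraries had been sequenced. Mouse embryonic fibroblasts (MEF, strain C57xICR, no treatment, n = 3) were the starting cells. Oct4-GFP-negative cells (n = 2) came from the same strain under the chemical mix coded VC6TF. Clusters and colonies, each labelled Oct4-GFP-positive and made from that strain under the mix coded VC6TF+Z, were sequenced as 1 library per kind. The chemically induced pluripotent lines 6 and 11 (CiPSC, strain C57xICR, mix coded VC6TFMB+Z) gave 1 library per line. The pluripotent reference was the embryonic stem cell line R1 (ESC, strain 129, no treatment, n = 4). GFP-negative cells, clusters and colonies had been picked for RNA, per the labels, so each library may mix cell types. The ESC libraries are of 1 line. CiPSC and ESC grew on feeder layers of MEF stopped with mitomycin C, and ESC and MEF differed in strain.

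Keratins are the intermediate filament proteins of epithelial cells and work as pairs of a type I and a type II chain. The pair Krt8 and Krt18 marks simple, single-layered epithelia and is among the first to appear in the embryo, whereas Krt5 and Krt14 mark the basal layer of stratified epithelia such as the epidermis. Claudins are the membrane proteins of tight junctions, some sealing the space between cells and others forming ion channels through it. Connexins assemble into gap junctions, the channels that join the cytoplasm of neighbouring cells.

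The values are reads per kilobase and library depth (RPKM). In 10 libraries, which carry the stages from MEF to ESC, the kilobases are those of the whole gene span. In the 3 others (CiPSC lines 6 and 11 and ESC replicate 4) they are those of the exons, and these 3 are compared with one another only. Scaling by gene span gives low values to genes with long introns. Levels, sums and the 1 RPKM cut in those 10 libraries therefore compare libraries for the same genes and do not rank genes against one another. In the gene-span libraries the depth, estimated from the size of 1 read, was 8.92 to 17.8 M reads. Genes without reads are held as 0.001 in MEF replicate 3, the colonies and ESC replicate 3, and as 0 in the other 7 gene-span libraries. All 8 fibroblast genes of the table reached 1 RPKM in MEF, with sums of 725 to 2698 RPKM, and in GFP-negative cells, with sums of 234.6 and 276 RPKM. The clusters had 6 of the 8, with a sum of 192.4 RPKM, and the colonies 6, with a sum of 53.8 RPKM. ESC replicates 1 to 3 had 4, 3 and 6, with sums of 23.7, 30.1 and 38.1 RPKM. Of 8 pluripotency genes, 0 reached 1 RPKM in the clusters, where Pou5f1 (Oct4) stood at 0.260 RPKM despite the label GFP-positive. The colonies had 6 of the 8 at 1 RPKM or more, with Pou5f1 at 124 RPKM, and ESC replicates 1 to 3 had all 8. In bulk RNA, fewer cells of a type and less RNA per cell cannot be told apart.

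Krt8 and Krt18 moved together, and Cldn6 was at its highest in the colonies. Gjb5 was at its highest in the clusters and the colonies, and Gja1 was at its highest in the clusters. The promoters of these 5 genes, on which the results turn, are shown first. Each is the RefSeq window of 250 bases before and 50 after the start of transcription on GRCm38.p6, read 5′ to 3′ on the strand of the gene. Capitals mark matches on either strand to the E-box of Snail and Zeb factors (CACCTG, or CAGGTG read on the other strand) and to the AP-1 site (TGANTCA). The windows are chr15:102004293-102004592 on the minus strand for Krt8, chr15:102027966-102028265 on the plus strand for Krt18, chr17:23679115-23679414 on the plus strand for Cldn6, chr4:127358115-127358414 on the minus strand for Gjb5 and chr10:56377050-56377349 on the plus strand for Gja1.
Krt8: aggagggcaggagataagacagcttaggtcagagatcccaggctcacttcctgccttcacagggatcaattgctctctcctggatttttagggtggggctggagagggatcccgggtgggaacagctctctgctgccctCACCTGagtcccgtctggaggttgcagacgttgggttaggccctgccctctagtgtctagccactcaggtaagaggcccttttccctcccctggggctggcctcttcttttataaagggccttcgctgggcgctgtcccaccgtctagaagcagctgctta
Krt18: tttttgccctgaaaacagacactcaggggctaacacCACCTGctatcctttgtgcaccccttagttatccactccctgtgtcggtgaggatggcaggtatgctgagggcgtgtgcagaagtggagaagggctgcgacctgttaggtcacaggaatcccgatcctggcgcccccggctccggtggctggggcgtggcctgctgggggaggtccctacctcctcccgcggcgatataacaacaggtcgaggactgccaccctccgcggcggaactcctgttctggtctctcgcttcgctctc
Cldn6: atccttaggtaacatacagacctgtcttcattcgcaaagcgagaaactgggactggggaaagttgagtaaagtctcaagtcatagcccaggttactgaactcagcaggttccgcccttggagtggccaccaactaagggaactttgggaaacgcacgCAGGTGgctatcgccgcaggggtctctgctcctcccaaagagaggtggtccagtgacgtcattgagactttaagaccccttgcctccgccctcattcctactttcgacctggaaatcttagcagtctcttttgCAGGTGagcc
Gjb5: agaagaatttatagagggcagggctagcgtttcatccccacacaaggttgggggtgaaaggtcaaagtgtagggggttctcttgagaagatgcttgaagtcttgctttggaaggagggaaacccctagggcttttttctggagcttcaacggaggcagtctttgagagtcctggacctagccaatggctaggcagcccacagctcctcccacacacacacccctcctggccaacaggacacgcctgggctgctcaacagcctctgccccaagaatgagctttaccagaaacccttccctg
Gja1: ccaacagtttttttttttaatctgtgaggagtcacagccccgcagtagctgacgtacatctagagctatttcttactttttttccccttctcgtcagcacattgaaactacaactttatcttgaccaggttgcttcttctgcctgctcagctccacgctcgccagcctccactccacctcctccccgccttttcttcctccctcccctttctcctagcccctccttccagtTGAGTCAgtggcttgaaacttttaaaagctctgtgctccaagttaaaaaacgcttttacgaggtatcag
Counted from 0 at the start, an E-box began at position -111 in Krt8 and at -214 in Krt18. Cldn6 held an E-box at -93 and another at 40. Gja1 held 1 AP-1 site, at -19, and Gjb5 held no match. RefSeq windows were matched to 32 of the 40 genes (43 windows). The E-box was in 15 of the 43 (34.88%), against 20.21% of all 32851 windows. The AP-1 site was in 5 (11.63%), against 7.81%, and the Grainyhead-like site AACCGGTT in 0, against 0.15%. These matches describe letters and not binding.

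Each stage held a different set of the 40 genes. MEF replicates 1 and 2 held Gja1, Gjb2, Cldn12 and Gjc1 at 1 RPKM or more. MEF replicate 3 also held Gja1 and differed from MEF replicates 1 and 2. Krt14 at 2.89 and Krt5 at 2.11 RPKM were higher there. Cldn12 at 1.83 and Gjb2 at 0.766 RPKM were lower. GFP-negative cells carried the basal and stress keratins with Gja1, and the libraries differed in their claudins. The sealing claudins summed to 29.7 RPKM in replicate 1, where Cldn4 was at 29.6 RPKM. They summed to 1.07 RPKM in replicate 2, where Cldn4 was at 0 RPKM. The clusters carried simple keratins, channel-forming claudins, Gja1 and Gjb5, and the colonies carried simple keratins at their highest level, Cldn6 and the beta connexin Gjb5. ESC replicates 1 to 3 carried the claudins Cldn4 and Cldn6 with the connexins Gja1 and Gjc1. ESC replicate 3 also held Krt18 at 8.40, Cldn7 at 4.66, Gjb5 at 4.32 and Krt8 at 3.57 RPKM. All of these were below 1 RPKM in ESC replicates 1 and 2. The number of the 40 genes at 1 RPKM or more was 4, 4 and 7 in MEF, 10 and 10 in GFP-negative cells, 13 in the clusters, 12 in the colonies and 5, 5 and 12 in ESC replicates 1 to 3. The share of all genes at that level was 36.1, 37.2 and 42.0% in MEF and 31.4 and 36.2% in GFP-negative cells. It was 30.9% in the clusters, 40.2% in the colonies and 39.1, 38.8 and 43.6% in ESC replicates 1 to 3.

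**Figure D1:**
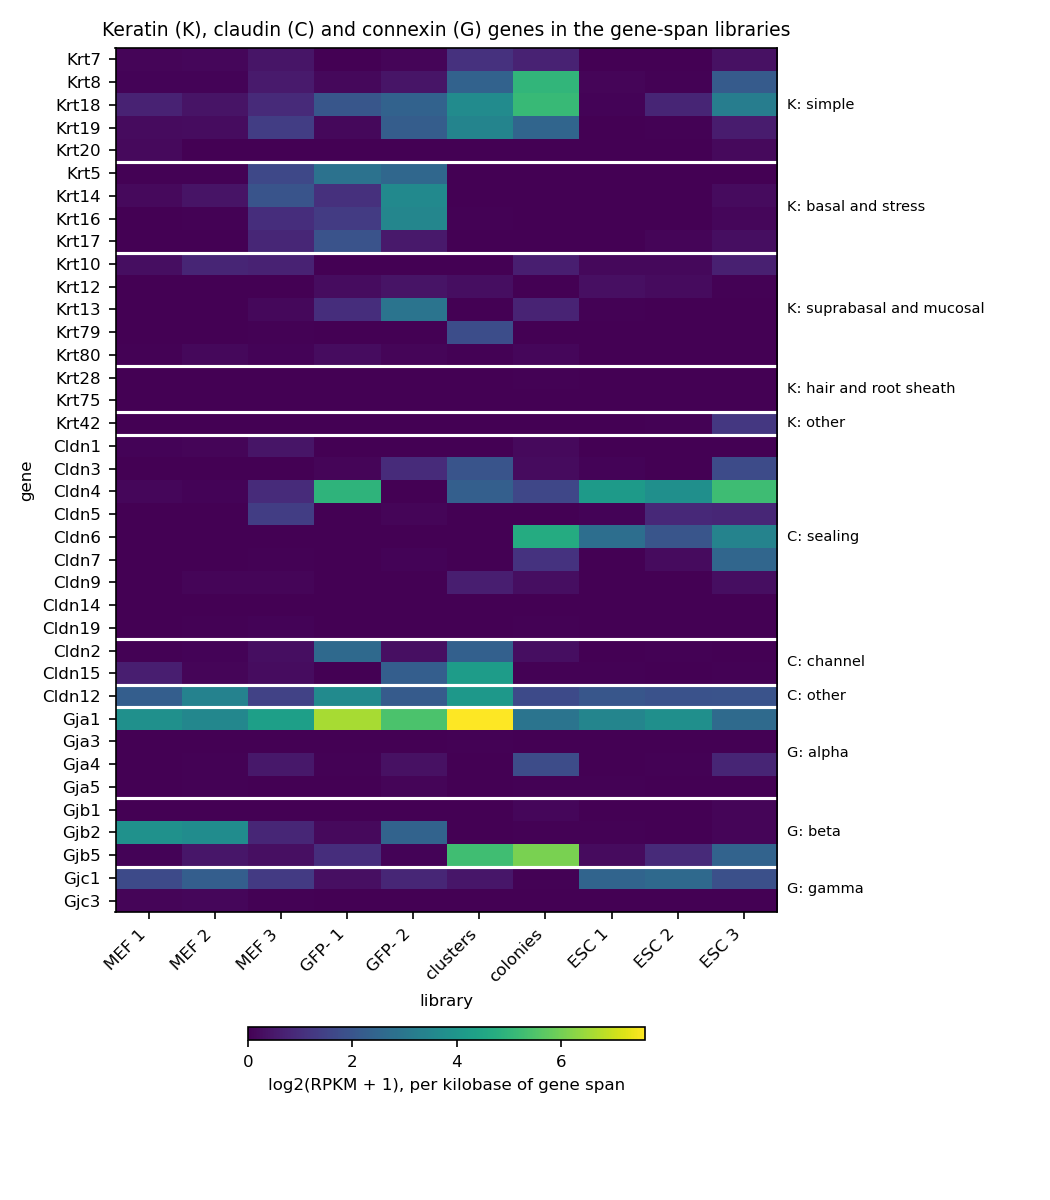
Level of 38 of the 40 keratin, claudin and connexin genes (rows, grouped by class) in the 10 gene-span libraries (columns, from MEF to ESC), as log2(RPKM + 1) by colour. The basal and stress keratins are brighter in the GFP-negative libraries than in the clusters, Krt14 and Krt16 most so in replicate 2. Gja1 reaches 193 RPKM in the clusters, and Gjb5 is bright in the clusters and the colonies.

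The simple keratins Krt7, Krt8, Krt18, Krt19 and Krt20 summed to 1.09, 0.678 and 3.29 RPKM in MEF and to 3.37 and 8.36 RPKM in GFP-negative cells. They summed to 26.8 RPKM in the clusters, 70.1 RPKM in the colonies and 0.154, 0.781 and 12.9 RPKM in ESC replicates 1 to 3. They made up 90.4% of the summed keratin level in the clusters and 98.02% in the colonies, against 20.5% and 19.8% in GFP-negative cells. The basal and stress keratins Krt5, Krt14, Krt16 and Krt17 were high in GFP-negative cells and near 0 in the clusters and the colonies. They summed to 0.183, 0.389 and 6.73 RPKM in MEF, to 11.7 and 26.8 RPKM in GFP-negative cells, to 0.0583 RPKM in the clusters, to 0.004 RPKM in the colonies, which is the value of 4 genes without reads, and to 0, 0.0875 and 0.488 RPKM in ESC.

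**Figure D2:**
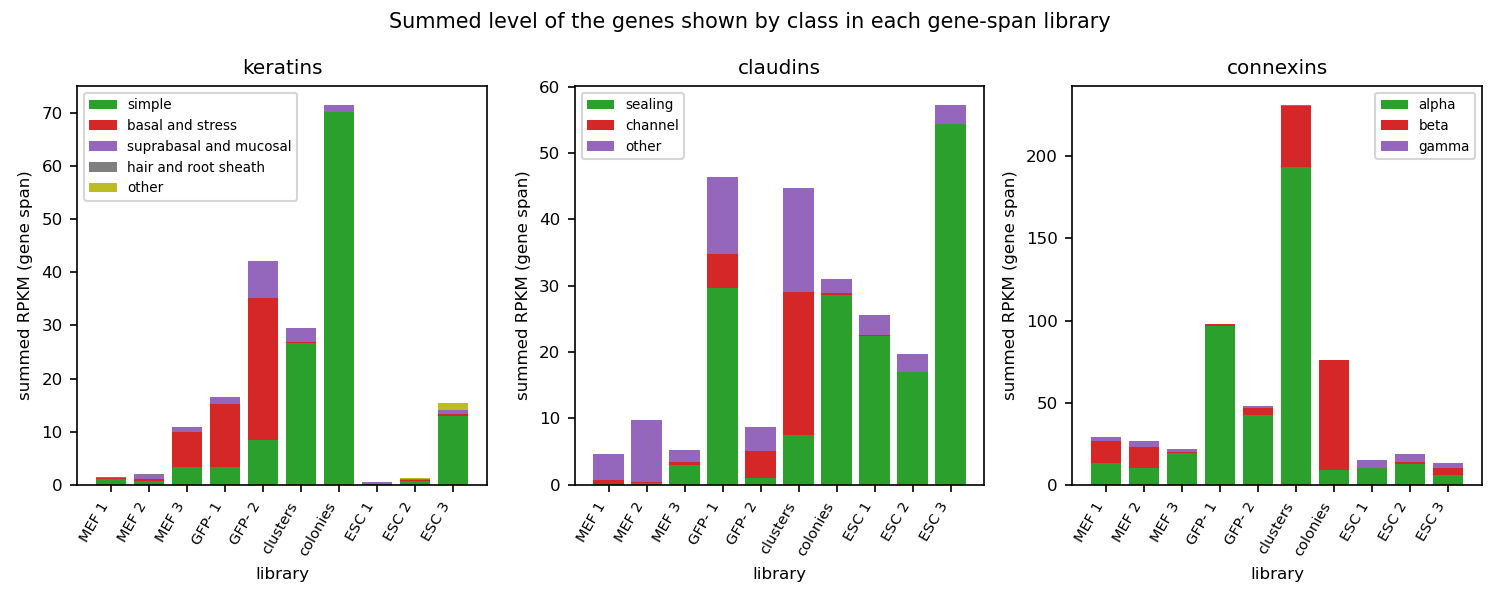
Summed RPKM per kilobase of gene span (bars from 0) of 38 of the 40 keratins, claudins and connexins in each gene-span library, stacked by class. Simple keratins reach 70.1 RPKM in the colonies, basal and stress keratins reach 26.8 RPKM in GFP-negative replicate 2, and the connexin bar turns from alpha in the clusters to beta in the colonies.

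Krt8, the type II chain of simple epithelia, stood at 0.0552, 0.0590 and 0.449 RPKM in MEF, 0.130 and 0.342 RPKM in GFP-negative cells, 4.29 RPKM in the clusters, 30.8 RPKM in the colonies and 0.0788, 0.0216 and 3.57 RPKM in ESC replicates 1 to 3. The clusters lay above every MEF and GFP-negative library and the colonies above all others. ESC replicate 3 lay apart from ESC replicates 1 and 2. Within the set of libraries that hold genes without reads as 0.001, Krt8 was at 30.8 RPKM in the colonies, against 3.57 RPKM in ESC replicate 3. Its type I partner Krt18 stood at 0.664, 0.310 and 0.873 RPKM in MEF, 3.13 and 4.24 RPKM in GFP-negative cells, 11.6 RPKM in the clusters, 34.1 RPKM in the colonies and 0.0592, 0.715 and 8.40 RPKM in ESC. Both GFP-negative values lay above all MEF values, yet the log2 change of 1.54 ± 0.77 (SE) did not pass the test (limma, adjusted p = 0.252). Behind the colony values stood about 2411 reads of Krt8 and 1317 of Krt18, which give 95% Poisson limits of 29.6 to 32.1 RPKM and 32.3 to 36.0 RPKM for counting error only. In ESC against MEF neither gene passed the test, with log2 changes of 0.55 ± 0.53 for Krt8 (limma, adjusted p = 0.497) and 0.69 ± 0.69 for Krt18 (limma, adjusted p = 0.513). Without ESC replicate 3 both differences were negative, at -0.16 and -0.25.

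Krt19, a type I keratin of simple and ductal epithelia, stood at 0.161, 0.201 and 1.63 RPKM in MEF, 0.115 and 3.71 RPKM in GFP-negative cells, 9.73 RPKM in the clusters, 4.55 RPKM in the colonies and 0, 0.0315 and 0.483 RPKM in ESC. Unlike Krt8 and Krt18, it was lower in the colonies than in the clusters. The same held for Krt7, another keratin of simple epithelia, at 0.646 RPKM in the colonies and 1.123 RPKM in the clusters. Krt79, a keratin of sebaceous and hair canal cells in mouse skin, stood at 2.51 RPKM in the clusters and at most 0.0378 RPKM in the other gene-span libraries. It had no reads in either GFP-negative library, so the clusters were at least 94.98-fold higher against the floor of 3 reads per library.

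Krt5, the type II keratin of basal cells, stood at 6.34 and 4.79 RPKM in GFP-negative cells, against 0.0290, 0.0290 and 2.11 RPKM in MEF. The groups did not overlap, and the rise passed the test (log2 change 2.13 ± 0.42, limma, adjusted p = 0.0170). Only without GFP-negative replicate 1 did it miss the threshold among the alternatives run (adjusted p = 0.0886). Its partner Krt14 was at 1.07 and 11.3 RPKM in GFP-negative cells, against 0.154, 0.321 and 2.89 RPKM in MEF, with overlapping groups and no call (log2 change 1.48 ± 0.71, limma, adjusted p = 0.235). Krt16, a keratin of wounded and proliferating epidermis, was at 1.48 and 10.3 RPKM in GFP-negative cells, against 0, 0.0392 and 0.977 RPKM in MEF, and fell just outside the threshold (log2 change 2.06 ± 0.55, limma, adjusted p = 0.0512). Krt13, a keratin of mucosal stratified epithelia, rose to 1.001 and 6.62 RPKM in GFP-negative cells, against 0, 0.0133 and 0.123 RPKM in MEF (log2 change 1.90 ± 0.43, limma, adjusted p = 0.0293). This call was lost in 7 of 13 alternatives, 6 of them at adjusted p of 0.0502 to 0.163. The other, without GFP-negative replicate 2, fell short of the fold threshold at a log2 change of 0.94. Krt17, another stress keratin, was at 2.85 and 0.443 RPKM in GFP-negative cells, against 0, 0 and 0.756 RPKM in MEF. The GFP-negative libraries thus differed in their basal and stress keratins, with Krt5 and Krt17 higher in replicate 1 and Krt14 and Krt16 higher in replicate 2. Krt14, Krt16 and Krt17 share near-identical stretches, so reads may have been split among them.

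MEF replicate 3 held more basal keratin than MEF replicates 1 and 2, at 6.73 RPKM summed over the 4 basal and stress genes. In the same library 4 of 4 macrophage genes of the table reached 1 RPKM, with a sum of 187.6 RPKM against 18.1 and 29.3 RPKM in MEF replicates 1 and 2, and the part of other cells in its keratins was not tested. Of 12 genes that mark keratinocytes beside their keratins, 3 reached 1 RPKM in each GFP-negative library, with sums of 7.9997 and 9.91 RPKM. MEF had 1, 0 and 1 of them, with sums of 2.49, 1.45 and 4.39 RPKM. ESC replicates 1 to 3 had 2, 2 and 4, with sums of 9.10, 7.54 and 75.1 RPKM. The list therefore did not set GFP-negative cells apart from ESC. Trp63, the master regulator of the basal epidermal state, stood at 0.0199 and 0.0112 RPKM in GFP-negative cells, against 0, 0.000811 and 0.00748 RPKM in MEF. On the gene-span scale such values do not show how few reads lay behind them. Tgm1, which crosslinks the cell envelope of stratified epithelia, was the only one of the 7 tested genes of that list to rise (log2 change 1.04 ± 0.24, limma, adjusted p = 0.0310). Of all tested genes, 3.53% rose in GFP-negative cells against MEF. Of 5 genes that mark the mesothelium, an epithelium that also makes keratins, 1 reached 1 RPKM in each GFP-negative library, with sums of 14.3 and 9.72 RPKM, against 1, 1 and 2 genes and sums of 2.62, 3.52 and 6.80 RPKM in MEF. That gene was Msln, at 12.5 and 7.93 RPKM in GFP-negative cells, against 1.76, 1.55 and 3.17 RPKM in MEF (log2 change 1.83 ± 0.35, limma, adjusted p = 0.0157). Upk3b of the same list was at 0.252 and 0.512 RPKM in GFP-negative cells, against 0.409, 0.993 and 2.89 RPKM in MEF. The part of such cells in the keratin levels was not tested.

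Among the claudins, Cldn6, a sealing claudin of embryonic epithelia and pluripotent cells, had no reads in any MEF or GFP-negative library or in the clusters. It stood at 24.8 RPKM in the colonies, at about 795 reads, and at 5.76, 3.03 and 9.49 RPKM in ESC replicates 1 to 3. The colonies lay above all 3 ESC libraries. Against the floor of 3 reads, the colonies were at least 235-fold higher than the clusters. The mean of ESC replicates 1 to 3, 6.09 RPKM, was at least 62.5-fold higher than in MEF and at least 67.1-fold higher than in GFP-negative cells. The rise in ESC over MEF passed the test (log2 change 2.72 ± 0.31, limma, adjusted p = 0.000592), and so it did in all 14 alternatives run. Cldn9, which lies 0.137 kb from Cldn6 in the GRCm38 annotation, was at 0.548 RPKM in the clusters, 0.208 RPKM in the colonies and 0, 0 and 0.209 RPKM in ESC.

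Cldn4, a sealing claudin of many simple epithelia, was at 16.6, 12.9 and 36.9 RPKM in ESC replicates 1 to 3, against 0.0933, 0.0623 and 0.920 RPKM in MEF. All ESC values lay above all MEF values, and the rise passed the test (log2 change 4.01 ± 1.05, limma, adjusted p = 0.0253). The call was lost in 7 of 14 alternatives: without any 1 of ESC replicates 1, 2 and 3 or MEF replicates 1 and 2, at adjusted p of 0.0526 to 0.0774, and with the exact-0 libraries alone or a replicate block, at adjusted p of 0.158 and 0.129. The GFP-negative libraries disagreed on this gene. Replicate 1 held 29.6 RPKM, from about 596 reads, and replicate 2 held 0. The clusters were at 3.97 RPKM and the colonies at 2.09 RPKM, below all 3 ESC libraries. Cldn7, a sealing claudin that also lines the lateral membrane, was at 1.19 RPKM in the colonies and 0, 0.160 and 4.66 RPKM in ESC. Cldn3, 39.279 kb from Cldn4, was at 0.0718 and 0.923 RPKM in GFP-negative cells, 2.94 RPKM in the clusters, 0.158 RPKM in the colonies and 0.0598, 0 and 2.30 RPKM in ESC.

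The claudins that form cation channels were highest in GFP-negative cells and clusters. Cldn15, known from the leaky epithelium of the gut, was at 0.566, 0.0853 and 0.191 RPKM in MEF, 0.0195 and 3.82 RPKM in GFP-negative cells, 17.5 RPKM in the clusters, 0.0215 RPKM in the colonies and at most 0.0325 RPKM in ESC. Cldn2, of leaky epithelia such as the kidney proximal tubule, was at 5.08 and 0.238 RPKM in GFP-negative cells, 3.98 RPKM in the clusters, 0.226 RPKM in the colonies and at most 0.0235 RPKM in ESC, and its MEF values reached 0.226 RPKM. The GFP-negative libraries split here too, Cldn2 being high in replicate 1 and Cldn15 in replicate 2. Neither gene passed the test in GFP-negative cells against MEF (limma, adjusted p = 0.146 for Cldn2 and 0.365 for Cldn15). Cldn12, a claudin found in many tissues, was at 3.83, 9.38 and 1.83 RPKM in MEF, 11.5 and 3.57 RPKM in GFP-negative cells, 15.7 RPKM in the clusters, 2.24 RPKM in the colonies and 3.12, 2.73 and 2.88 RPKM in ESC. Of the remaining claudins, Cldn5, of endothelial junctions, reached 1.62 RPKM in MEF replicate 3, and Cldn1, Cldn14 and Cldn19 stayed at or below 0.335 RPKM in all gene-span libraries.

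**Figure D3:**
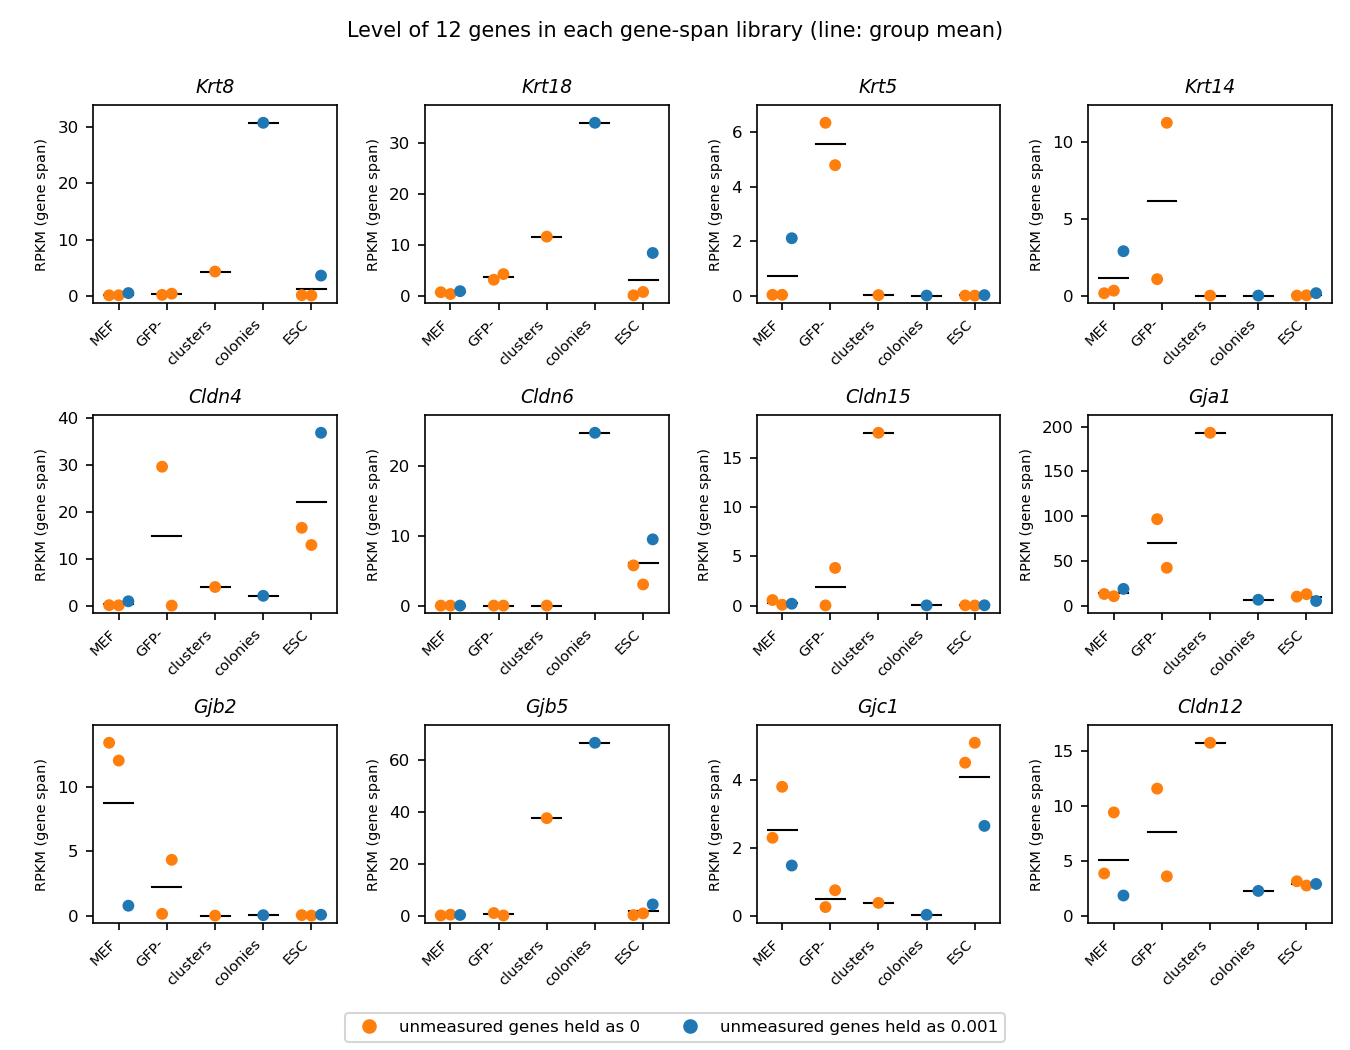
RPKM per kilobase of gene span of 12 genes in each gene-span library (points) by stage, with the group mean as a line. Orange points are libraries that hold genes without reads as 0 and blue points those that hold them as 0.001; Cldn6 is at 24.8 RPKM in the colonies and has no reads in the clusters.

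Gja1, the connexin found in most connexin-expressing cells, fibroblasts included, was at 96.6 and 42.3 RPKM in GFP-negative cells, against 12.96, 10.5 and 18.7 RPKM in MEF. The groups did not overlap and the rise passed the test (log2 change 2.15 ± 0.48, limma, adjusted p = 0.0265). The call was lost in 6 of 13 alternatives: without GFP-negative replicate 1 (adjusted p = 0.131), without MEF replicate 1 or 2 (adjusted p = 0.0727 and 0.0785), with the 10 gene-span libraries alone, with the exact-0 libraries alone and with a replicate block (adjusted p = 0.0571, 0.0579 and 0.0936). The clusters held 193 RPKM, above every other gene-span library, and the colonies 6.56 RPKM. ESC replicates 1 to 3 held 10.1, 12.8 and 5.14 RPKM, and ESC fell below GFP-negative cells (log2 change -2.73 ± 0.48, limma, adjusted p = 0.00358). In ESC against MEF the log2 change was -0.58 ± 0.43 (limma, adjusted p = 0.358).

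Gjb5, a beta connexin known in mouse from the epidermis and the placenta, was at 0.05, 0.367 and 0.247 RPKM in MEF, 0.991 and 0.0574 RPKM in GFP-negative cells, 37.6 RPKM in the clusters, 66.8 RPKM in the colonies and 0.178, 0.857 and 4.32 RPKM in ESC replicates 1 to 3. The clusters and the colonies lay far above all other gene-span libraries, resting on about 1132 and 2262 reads. Its log2 change of 0.90 ± 0.51 in ESC against MEF did not pass the test (limma, adjusted p = 0.235).

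Gja4, a connexin of endothelium and oocytes, was at 2.43 RPKM in the colonies, above every other gene-span library. It had no reads in the clusters, and its values were 0.0345 and 0.259 RPKM in GFP-negative cells and 0, 0.0315 and 0.724 RPKM in ESC. Of 6 endothelial genes 3 reached 1 RPKM in the colonies, Esam at 13.4 RPKM, Egfl7 at 10.1 RPKM and Cdh5 at 5.42 RPKM, with a list sum of 29.6 RPKM, against 0, 0 and 1 genes and sums of 2.14, 1.22 and 2.53 RPKM in ESC. All 3 were at most 0.241 RPKM in the clusters. Of 4 macrophage genes 3 reached 1 RPKM in the colonies, Cd68 at 15.8 RPKM among them, and the list sum was 20.8 RPKM. In ESC replicates 1 to 3 the counts were 1, 2 and 2, with sums of 3.12, 3.36 and 10.8 RPKM. The part of such cells in Gja4 was not tested.

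Gjb2, a connexin of the inner ear, liver and skin, was at 0.0370, 0 and 0.0654 RPKM in ESC replicates 1 to 3, against 13.4, 12.04 and 0.766 RPKM in MEF. The groups did not overlap, and the fall passed the test (log2 change -2.74 ± 0.81, limma, adjusted p = 0.0392), with MEF replicate 3 far below the other MEF libraries. It was lost in 7 of 14 alternatives, at adjusted p of 0.0542 to 0.126. GFP-negative cells were at 0.133 and 4.33 RPKM, and the clusters had no reads. Gjc1, a connexin of the early embryo, heart and smooth muscle, was at 4.49, 5.08 and 2.64 RPKM in ESC, against 0.251 and 0.746 RPKM in GFP-negative cells, and passed the test as higher (log2 change 1.74 ± 0.34, limma, adjusted p = 0.00586). MEF held 2.29, 3.79 and 1.47 RPKM, all above the GFP-negative values, without a call (GFP-negative against MEF, log2 change -1.20 ± 0.34, limma, adjusted p = 0.0622). The clusters were at 0.373 RPKM and the colonies at 0.0247 RPKM.

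The remaining genes were low on these scales. Krt10, Krt12, Krt20, Krt28, Krt75, Krt80, Gja3, Gja5, Gjb1 and Gjc3 stayed below 1 RPKM in all 13 libraries. Gja5 spans 172724 bases, of which 5746 are exonic. Its 0.0656 RPKM in GFP-negative replicate 2 rested on about 117 reads. Krt42, a type I keratin, was at 1.36 RPKM in ESC replicate 3 and at most 0.0236 RPKM in the other gene-span libraries. Of the 40 genes, 11 overlap another annotated gene, Krt5 and Krt8 on the opposite strand among them. Strand handling is not given in the sources used here, so reads of the pair cannot be told apart.

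Counts of genes past the tests were read against the whole table. Of the 40 genes, 21 reached 1 RPKM in at least 2 of the 13 libraries and were tested among 10647 genes. A gene was called at a Benjamini-Hochberg adjusted p under 0.05 and a log2 change of 1 or more in size on the log2(RPKM + 1) scale, which understates changes of low genes. The labels do not say whether replicates were separate cultures, so the p-values measure only the spread between these libraries. The 3 comparisons among MEF, GFP-negative cells and ESC share libraries.

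In GFP-negative cells against MEF, Krt5, Krt13 and Gja1 rose and 0 of the 21 fell (limma). At an unadjusted limma p under 0.05, in either direction, stood 6 of the 21 and 2745 of the 10647 tested genes. Of all tested genes, 3.53% rose and 4.09% fell. The median log2 change was 0.54 over the 21 genes and -0.13 over all tested genes. Without MEF replicate 3 the number called was 5, with Krt16 called higher, Gjb2 and Gjc1 called lower, and Krt13 lost. Without MEF replicate 1 or 2 Krt5 was the only call. The calls also depended on which GFP-negative library was kept, the lone library being assumed to vary like the other groups. Without GFP-negative replicate 1 they were Cldn15, Krt13, Krt14 and Krt16, and without GFP-negative replicate 2 they were Cldn2, Cldn4, Krt5 and Gja1, all higher than in MEF.

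In ESC against MEF, Cldn4 and Cldn6 rose and Gjb2 fell, 3 of the 21 genes (limma). Over all tested genes 7.95% rose and 7.97% fell, so the share of the 21 lay near the background. The median log2 change was 0.01 over the 21 genes and 0.14 over all tested genes. Cldn6 was the only call that held whichever 1 library of the compared groups was left out.

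In ESC against GFP-negative cells, Cldn6 and Gjc1 rose and Krt5, Krt13, Krt14, Krt16 and Gja1 fell (limma). Over all tested genes 14.3% rose and 8.35% fell. Krt5 was at 0, 0 and 0.0171 RPKM in ESC replicates 1 to 3 (log2 change -2.70 ± 0.42, limma, adjusted p = 0.00215), and Krt14 at 0, 0.0188 and 0.159 RPKM (log2 change -2.25 ± 0.71, limma, adjusted p = 0.0422). For Krt16 the log2 change was -2.36 ± 0.55 and for Krt13 it was -1.94 ± 0.43 (limma, adjusted p = 0.0123 and 0.0104). The call of Krt14 was lost in 9 of 13 alternatives, that of Krt13 in 3 and that of Krt16 in 2. Krt18 stayed uncalled in 10 of 13 alternatives, and its log2 change over all 13 was -1.86 to -0.21. The settings that called it lower included leaving out ESC replicate 3 (log2 change -1.79, limma, adjusted p = 0.00887).

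**Figure D4:**
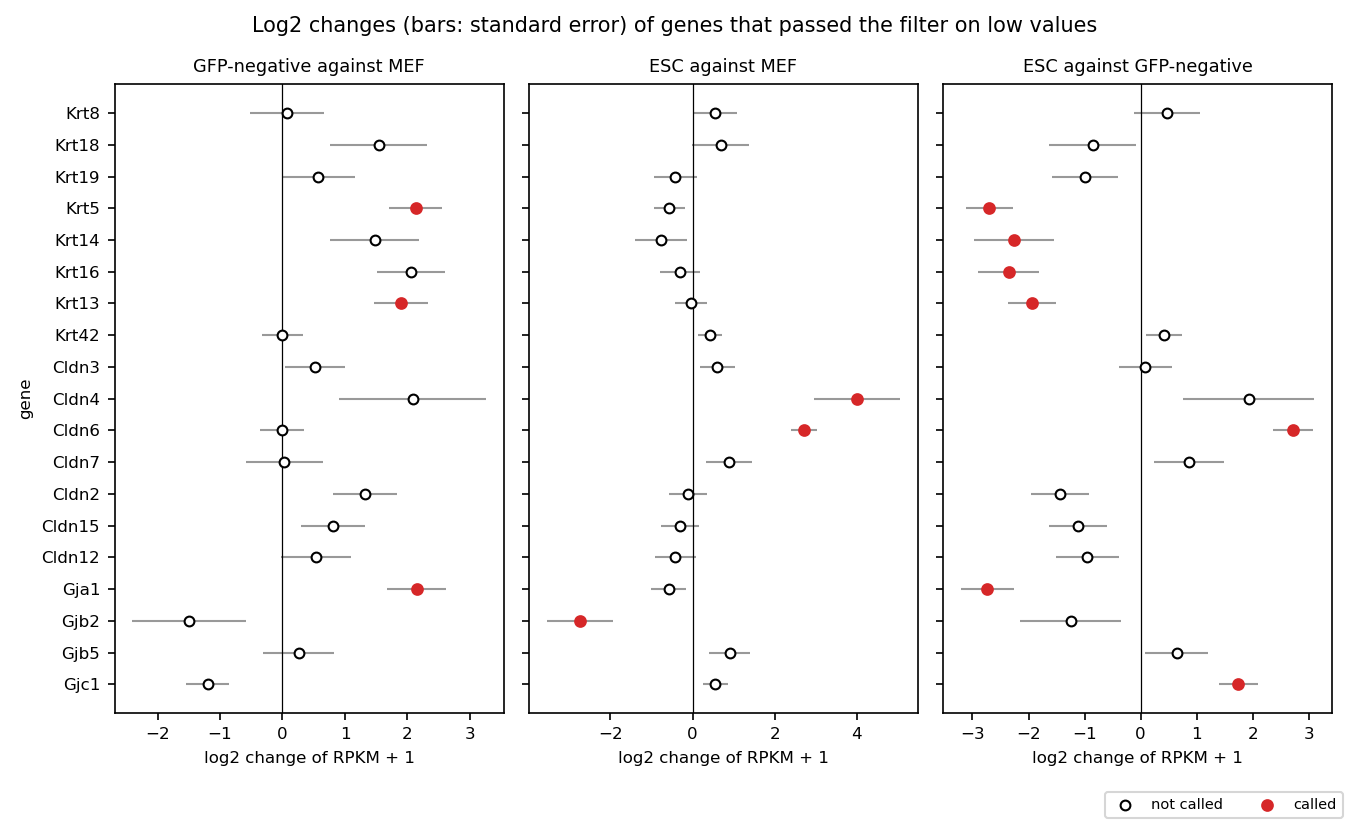
Log2 change of RPKM + 1 (points) with its standard error (bars) for 19 of the 21 tested genes in 3 comparisons, with called genes in red. Krt5, Krt13 and Gja1 are the called genes in GFP-negative cells against MEF, and all 3 lie on the lower side in ESC against GFP-negative cells, with which they share libraries.

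The clusters, with 1 library, were set beside the GFP-negative libraries without a test. A gene was counted as past the fold when it differed by 1 or more from their mean on the log2(RPKM + 1) scale and lay outside both. Of the 40 genes, 11 were higher in this sense (27.5%, against 8.39% of all 15176 genes), among them Krt7, Krt8, Krt18, Krt19, Krt79, Cldn3, Cldn12, Cldn15, Gja1 and Gjb5. Another 6 were lower (15%, against 8.96%): Krt5, Krt13, Krt14, Krt16, Krt17 and Gjb2. In either direction 42.5% of the 40 genes and 17.3% of all genes were past the fold. With a pseudocount of 0.1 the shares were 47.5% and 35.9%, so the excess was smaller. Of the 4 basal and stress keratins, all 4 were lower, and of the 5 simple keratins, 4 were higher. Kdr, an endothelial receptor, was at 24.6 RPKM in the clusters, the only one of 6 endothelial genes at 1 RPKM or more. Of the 5 mesothelial genes 3 reached 1 RPKM there, Wt1 at 7.35 RPKM, Upk3b at 1.12 RPKM and Msln at 1.001 RPKM. Against the GFP-negative libraries Wt1 was past the fold upward and Msln past it downward. Their part in the keratin and claudin levels was not tested.

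In the colonies against the clusters, 7 of the 40 genes were past the fold upward (against 20.1% of all genes), among them Krt8, Krt18, Cldn6, Cldn7 and Gja4. Another 6 were past it downward (against 9.42%): Krt79, Cldn2, Cldn3, Cldn12, Cldn15 and Gja1. The upward share, 17.5%, was near the background. These libraries hold genes without reads differently, so that the stage and the set of libraries cannot be told apart, and the median log2 value over the tested genes was 1.19 in the colonies and 0.73 in the clusters. With each library centred on its median, 6 were higher and 8 lower, Cldn7 no longer counting as higher and Krt19 and Cldn4 counting as lower.

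In the colonies against ESC replicates 1 to 3, 8 of the 40 genes were past the fold upward (20%, against 10.9% of all genes), among them Krt8, Krt18, Krt19, Cldn6, Gja4 and Gjb5. Cldn4 and Gjc1 were past it downward (5%, against 6.44%). Against ESC replicate 3 alone, which is of the same set as the colonies, the values of Cldn6 were 24.8 RPKM in the colonies and 9.49 RPKM in ESC. In the colonies 8 of 9 genes that mark extraembryonic endoderm, an embryonic epithelium that makes Krt8 and Krt18, reached 1 RPKM, with a sum of 809.6 RPKM, against 1, 1 and 2 genes and sums of 6.14, 5.53 and 18.8 RPKM in ESC. The clusters had 4 of the 9 and a sum of 70.7 RPKM. Among the 8 in the colonies were Sparc at 696.7 RPKM, Lamb1 at 58.3 RPKM and Foxa2 at 21.6 RPKM. Sparc is also made by fibroblasts and stood at 166.7, 172.2 and 229.6 RPKM in MEF. Of 7 trophoblast genes, 0 reached 1 RPKM in the colonies, and their sum was 2.15 RPKM. The part of endoderm-like cells in the keratin levels was not tested.

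Other junction genes, from lists chosen for their role, moved in part with these genes. Of 12 tested genes of adherens junctions and desmosomes, 3 rose in ESC against MEF and 0 fell (limma): Epcam (log2 change 2.82 ± 0.18, limma, adjusted p = 2.46e-05), Cdh1, the E-cadherin gene (log2 change 2.78 ± 0.18, limma, adjusted p = 2.68e-05) and Dsg2, a desmosomal cadherin (log2 change 1.09 ± 0.19, limma, adjusted p = 0.00393). Of all tested genes, 7.95% rose and 7.97% fell there. The median log2 change of that list was 0.50, against 0.14 over all tested genes. Cdh1 was at 0.116 and 0.353 RPKM in GFP-negative cells, 1.71 RPKM in the clusters, 2.15 RPKM in the colonies and 5.56, 6.22 and 6.10 RPKM in ESC. Epcam was at 7.98 RPKM in the colonies and 0.0296 RPKM in the clusters. Of 16 tested partners of claudins at the tight junction, 0 were called in ESC against MEF (limma), with 6 at an unadjusted p under 0.05. Of all 10647 tested genes, 3950 stood at such a p there.

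In GFP-negative cells against MEF 2 of these 16 rose and 0 fell (limma): Cxadr, a cell adhesion molecule of epithelia (log2 change 1.99 ± 0.30, limma, adjusted p = 0.00536) and Cgnl1, a cingulin-like junction protein (log2 change 1.04 ± 0.16, limma, adjusted p = 0.00594). Of all tested genes, 3.53% rose and 4.09% fell there. Of the 12 adherens junction and desmosome genes, 0 were called there (limma), with 2 at an unadjusted p under 0.05, against 2745 of all 10647 tested genes. Of the 8 tested regulators of the epithelial state, 0 were called and 0 had an unadjusted p under 0.05. In ESC against MEF 3 of those 8 rose: Elf3, an epithelial transcription factor (log2 change 3.19 ± 0.20, limma, adjusted p = 2.45e-05), and the protease inhibitors Spint1 (log2 change 1.80 ± 0.47) and Spint2 (log2 change 1.29 ± 0.30). Of all tested genes, 7.95% rose in ESC against MEF. Elf3 was at 30.8 RPKM in the colonies and 0.114 RPKM in the clusters.

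Of the 6 transcription factors that repress epithelial genes during the epithelial to mesenchymal transition, 2 rose in GFP-negative cells against MEF (limma): Twist2 (log2 change 1.48 ± 0.14, adjusted p = 0.000472) and Zeb2 (log2 change 1.02 ± 0.20, adjusted p = 0.0179). In ESC against MEF 3 fell: Twist1 (log2 change -4.08 ± 0.32), Snai2 (log2 change -3.38 ± 0.33) and Snai1 (log2 change -2.78 ± 0.46). Twist1 was at 59.6 and 82.0 RPKM in GFP-negative cells, 64.5 RPKM in the clusters, 3.48 RPKM in the colonies and 0.210, 0.962 and 1.16 RPKM in ESC. Snai1 was at 18.4 RPKM in the colonies, above all other gene-span libraries. Of all tested genes, 3.53% rose in GFP-negative cells against MEF and 7.97% fell in ESC against MEF.

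The CiPSC lines were compared with ESC replicate 4, the 1 ESC library on the exonic scale. Both lines carried the claudins Cldn4 and Cldn6 and the connexins Gjb5, Gjc1 and Gja1 at several RPKM, as ESC replicate 4 did apart from Cldn6. No gene of the 21 was called (limma), and 0.16% of all tested genes were called in either direction. At an unadjusted limma p under 0.05 stood 1 of the 21 and 507 of the 10647 tested genes. Cldn4 was at 10.4 RPKM in line 6 and 9.28 RPKM in line 11, against 5.57 RPKM in ESC replicate 4. Cldn6 was at 5.89 and 4.56 RPKM in the lines, against 0.956 RPKM in ESC replicate 4 (log2 change 1.66 ± 0.47, limma, adjusted p = 0.434). Over 8 alternatives its log2 change was 1.51 to 2.32, and it stayed uncalled in 7 of them.

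Among the other genes Gjc1 was at 5.81 and 6.00 RPKM in the lines, against 8.92 RPKM in ESC replicate 4. Gja1 was at 4.43 and 5.81 RPKM, against 6.16 RPKM, and Gjb5 at 4.77 and 4.70 RPKM, against 5.53 RPKM. Krt8 was at 2.51 RPKM in line 6 and 1.22 RPKM in line 11, on either side of 1.70 RPKM in ESC replicate 4. Krt18 was at 2.45 and 1.29 RPKM in the lines, against 0.956 RPKM. Krt42 was nearly level, at 3.38 and 3.15 RPKM in the lines, against 3.42 RPKM. Of the 15 genes at 0.5 RPKM or more in any of the 3 libraries, both lines lay above ESC replicate 4 in 6 (40%, against 49.23% of 10747 genes of the table) and below it in 7 (46.67%, against 41.06%). Krt5 was at 0.00893 and 0.0105 RPKM in the lines and 0.0125 RPKM in ESC replicate 4.

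**Figure D5:**
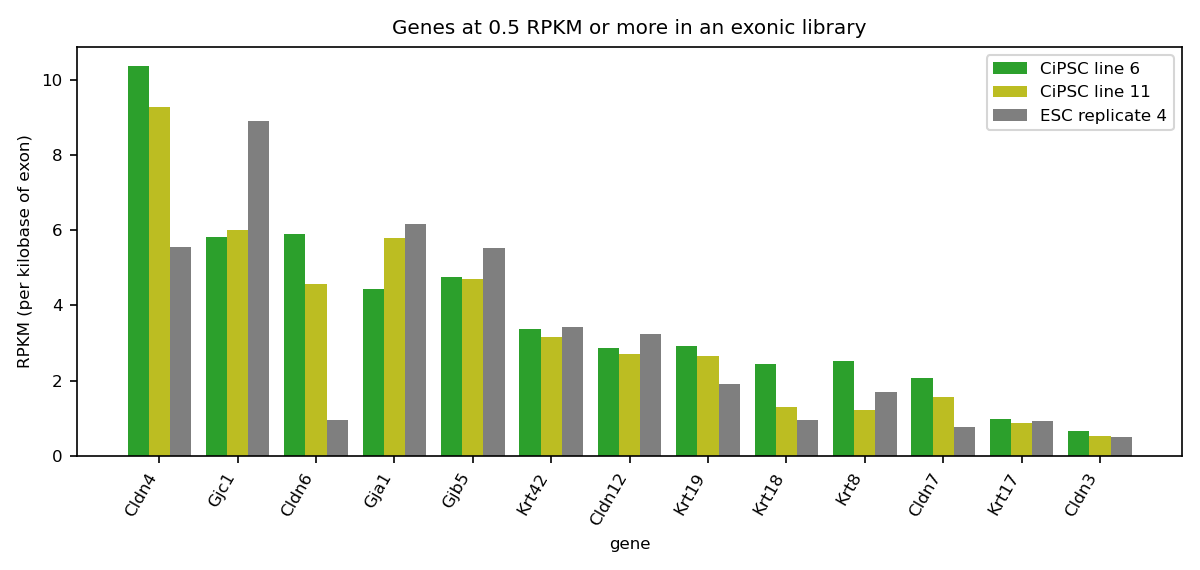
RPKM per kilobase of exon (bars from 0) of 13 of the 15 genes at 0.5 RPKM or more in any exonic library, for CiPSC lines 6 and 11 and ESC replicate 4, 1 library each. Cldn4 and Cldn6 are higher in both CiPSC lines, and Gjc1 is highest in ESC replicate 4 at 8.92 RPKM.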

How the data were processed

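Total RNA of 13 mouse libraries had been sequenced, and 1 RPKM column per library was analysed. The authors deposited RPKM values, reads scaled by gene length and library depth, per the file headers. Per the submitters' processing notes, TopHat 1.3.0 was used with mm9. The counting tool, its annotation and strand setting were not given in those sources. Of 15184 rows, the 8 that share 1 symbol were left out. RPKM multiplied by the gene span in the GRCm38 annotation (13671 genes matched, 90.1%) gave whole reads for 81.8 to 85.0% of low values in 10 libraries, at a tolerance of 0.05 steps, which gave the estimated depths, Poisson limits (95%) and floors of 3 reads. The other 3 libraries showed no such steps with that span (10.4 to 13.1%) and were taken as scaled by exon length; their depth is unknown.

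The 10647 genes that reached 1 RPKM in 2 libraries or more were tested as log2(RPKM + 1) with limma 3.58.1 in R 4.3.3, over all 13 libraries. The model had a term for the length scale and a mean-variance trend, and p-values were adjusted over those genes by Benjamini-Hochberg. The limma fit was tested on simulated data. Groups followed the labels, and comparisons with 1 library on a side were not tested except through limma's pooled spread for the CiPSC lines. The genes and lists were chosen with earlier results of these data known. Genes were named if called, at 5 RPKM or more in any library, or past the fold at 2 RPKM or more, with Krt8, Krt18, Cldn6, Gjb5 and Krt5 always named; the others named were added after their values were seen. Some genes that meet this rule are counted in the totals but not reported here by name. Alternatives covered the pseudocount, the filter, centring, the trend, the fold threshold, subsets of libraries, a replicate block and leaving out each library.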

Additional observations from a re-analysis of the deposited data

How the results depend on the processing

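The calls of GFP-negative cells against MEF depended most on the settings: 1 gene of the 21 was called with the 10 gene-span libraries alone, 1 with only the libraries that hold genes without reads as exact 0, and 5 with a pseudocount of 0.1. Over all genes these settings called 453, 343 and 1391, against 811 as reported. Leaving out 1 library gave 1 to 5 calls there, 1 to 3 in ESC against MEF and 6 to 10 in ESC against GFP-negative cells. Over all genes, leaving out 1 MEF library gave 562 to 828 calls in GFP-negative cells against MEF. Leaving out 1 library gave 1330 to 1672 calls in ESC against MEF. With a replicate block the calls were 2 in ESC against MEF, 1 in GFP-negative cells against MEF and 5 in ESC against GFP-negative cells. Over all genes the block gave 812, 141 and 1500 calls, against 1695, 811 and 2415 as reported. The replicate numbers did not pair the samples (correlations of their deviations -0.0417, -0.0673 and 0.0826). With the 3 exonic libraries alone 1 gene was called in CiPSC against ESC replicate 4, in a fit that rests on the spread between the CiPSC lines and called 205 genes of the table, against 17 as reported. With a pseudocount of 0.1, 19 genes were past the fold in the clusters against GFP-negative cells (47.5%, against 35.9% of all genes). At that setting 20 were past it in the colonies against the clusters (50%, against 56.4%) and 16 in the colonies against ESC (40%, against 37.7%).

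Reversed directions were seen only for genes that were not called. In ESC against MEF Krt18 had a log2 change of -0.13 with exact-0 libraries alone and with the replicate block, and -0.25 to 1.33 over single-library omissions. Krt8 had -0.00999 under the first pair of settings and -0.16 to 0.92 over omissions. In ESC against GFP-negative cells Krt8 had -0.23 under the same pair and -0.23 to 0.85 over omissions. Gjb5 had -0.20 to 0.71 over omissions in GFP-negative cells against MEF, and Krt8 -0.28 to 0.38 in CiPSC against ESC replicate 4. The lowest values came without ESC replicate 3, GFP-negative replicate 1 and CiPSC line 6. The cause was not tested. Leaving out ESC replicate 4 could not be run, since no other ESC library is on the exonic scale, nor leaving out the 1 cluster or colony library. Depth sets a floor of 3 reads for genes at 0, and intervals cover counting error only.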

Other observations

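The other intermediate filament genes were measured beside the keratins. Of the 4 tested, 3 fell in ESC against MEF (limma): Vim, the vimentin gene (log2 change -3.56 ± 0.45, adjusted p = 0.0010), Lmna, a nuclear lamin gene (log2 change -3.00 ± 0.58, adjusted p = 0.00689) and Nes, the nestin gene (log2 change -1.37 ± 0.39, adjusted p = 0.0331). In GFP-negative cells against MEF Vim fell, to 22.8 and 39.0 RPKM against 168.9, 156 and 223 RPKM in MEF (log2 change -2.56 ± 0.51, limma, adjusted p = 0.0175), and Nes rose, to 17.4 and 39.9 RPKM against 10.0, 9.90 and 4.32 RPKM in MEF (log2 change 1.67 ± 0.43, limma, adjusted p = 0.0463). Of all tested genes, 7.97% fell in ESC against MEF, and 3.53% rose and 4.09% fell in GFP-negative cells against MEF. Des, the muscle filament gene desmin, stood at 24.9 RPKM in the clusters and at most 2.36 RPKM in the other gene-span libraries. Panx1, a pannexin channel gene unrelated in sequence to connexins, was the 1 tested pannexin and was called in none of these comparisons (limma, adjusted p = 0.589 in ESC against MEF and 0.630 in GFP-negative cells against MEF).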
